A study of Macaca fascicularis with 64 samples.

Results

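Regulator of G protein signalling (RGS) genes were followed in single islet cells of cynomolgus monkeys (Macaca fascicularis). The 10 genes are RGS2, RGS3, RGS4, RGS7, RGS9, RGS10, RGS12, RGS14, RGS16 and RGS17, which were listed by name from the 21 genes called RGS and a number among the 21041 genes of the count tables. All 10 were found. Islets came from 16 monkeys, 8 young (4 to 6 years) and 8 old (18 to 21 years), with 4 females and 4 males of each age and 4 libraries per monkey. No monkey carried an engineered allele or received an agent. Each monkey was collected on a day of its own, so the animal and its day of collection cannot be told apart. Only the tail of the pancreas was used, islets were picked by hand, and the cells were dissociated with enzymes, cleared of debris by sorting and picked singly, so the cells in the tables are those that survived these steps.

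RGS proteins shorten G protein signals. They bind the activated α subunit of a heterotrimeric G protein and speed up its hydrolysis of GTP, which returns the subunit to its inactive state and ends the signal from the receptor. Islet hormone secretion is under the control of many such receptors, among them those for glucagon, incretins, somatostatin, acetylcholine and adrenaline, which act through Gs, Gq or Gi and Go. The RGS family is divided by sequence: the R4 group holds small proteins (RGS2, RGS3, RGS4, RGS16), the R7 group works as a complex with the atypical β subunit GNB5 (RGS7, RGS9), the R12 group holds RGS10 and the multidomain proteins RGS12 and RGS14, and RGS17 belongs to the RZ group.

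Of 6141 cells in the tables, 5908 had more than 800 genes and more than 10000 UMIs. A UMI (unique molecular identifier) marks 1 captured mRNA molecule. Each cell was given a type by the highest of its UMI counts for GCG, INS, SST and PPY, the 4 islet hormones. This made 4503 α-cells, 1219 β-cells, 112 δ-cells and 74 PP-cells. No type was kept for cells outside these 4, which the study counted apart, so any among the retained cells stand within these types. The measured values that chose the types were these hormone counts, so the hormones are not tested here, and no RGS count entered the choice. Spike-in UMIs counted toward this total. The smallest total among retained cells was 10016 UMIs and the largest among cells with enough genes but too few UMIs was 9973. In 107 retained cells the highest hormone was under 1.5 times the second.

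The types were checked on markers other than the hormones that chose them, by their mean level. IRX2, an α-cell transcription factor, was at 475 CPM in α-cells and 40.4 in β-cells. SLC2A2, the glucose transporter of β-cells, was at 690 CPM in β-cells and 9.97 in α-cells, and MAFA, a β-cell transcription factor, at 116 and 5.83. HHEX, a δ-cell transcription factor, was at 357 CPM in δ-cells and at most 2.41 in the other types. In PP-cells the markers were mixed: SERTM1 was highest there (14.96 CPM against at most 0.862), but THSD7A was higher in δ-cells (105 against 37.7) and ID4 was higher in α-cells (20.1 against 1.25), so the PP label rests mainly on PPY. CPM stands for UMIs of a gene per 1000000 macaque UMIs, both added up over all cells that a monkey had of that type. However, the highest hormone was under 4 times the second in 68.5% of β-cells, 64.3% of δ-cells and 89.2% of PP-cells, against 6.64% of α-cells, and GCG stood at a mean of 22849 CPM in β-cells beside 76263 in α-cells. Summed acinar markers, of which 4 of 8 were found, had a median of 1.88 CPM in α-cells and a highest value of 1647, in a young monkey. Summed immune markers in α-cells had a median of 23.9 and a highest value of 153 CPM. Total UMIs per monkey ranged from 20719761 to 34053080. A type was summed in a monkey where it had at least 5 cells, so that α- and β-cells could be read in 16 monkeys, δ-cells in 11 and PP-cells in 6. PP-cells came from 2 young males and 4 old monkeys.

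Different genes led the summed RGS level in each type. The sum of the 10 genes was 811 ± 199 CPM (SD, n = 16) in α-cells, 1353 ± 786 in β-cells (n = 16), 728 ± 211 in δ-cells (n = 11) and 1054 ± 183 in PP-cells (n = 6). UMIs count molecules at 1 end of the transcript and were not divided by gene length. On this scale RGS4 was on average 41.3% and RGS2 29.0% of the sum in α-cells, RGS16 was 64.8% in β-cells, RGS9 was 29.8% and RGS2 28.8% in δ-cells, and RGS2 was 63.9% in PP-cells. The 10 genes held on average 94.8%, 96.6%, 95.3% and 91.5% of the summed level of all 21 RGS genes in α-, β-, δ- and PP-cells. Among the 11 genes that are not listed, RGS5 had a mean of 139 CPM in PP-cells, which came from 1 monkey at 826 CPM, beside a median of 0.334 CPM. RGS5 is also on the list of stellate and pericyte markers. The sum of that list in PP-cells, RGS5 included, had a median of 12.1 and a highest value of 1032 CPM. The kind of cell that held this RGS5 was not tested. RGS5 is named here after its values were seen.

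**Figure D1:**
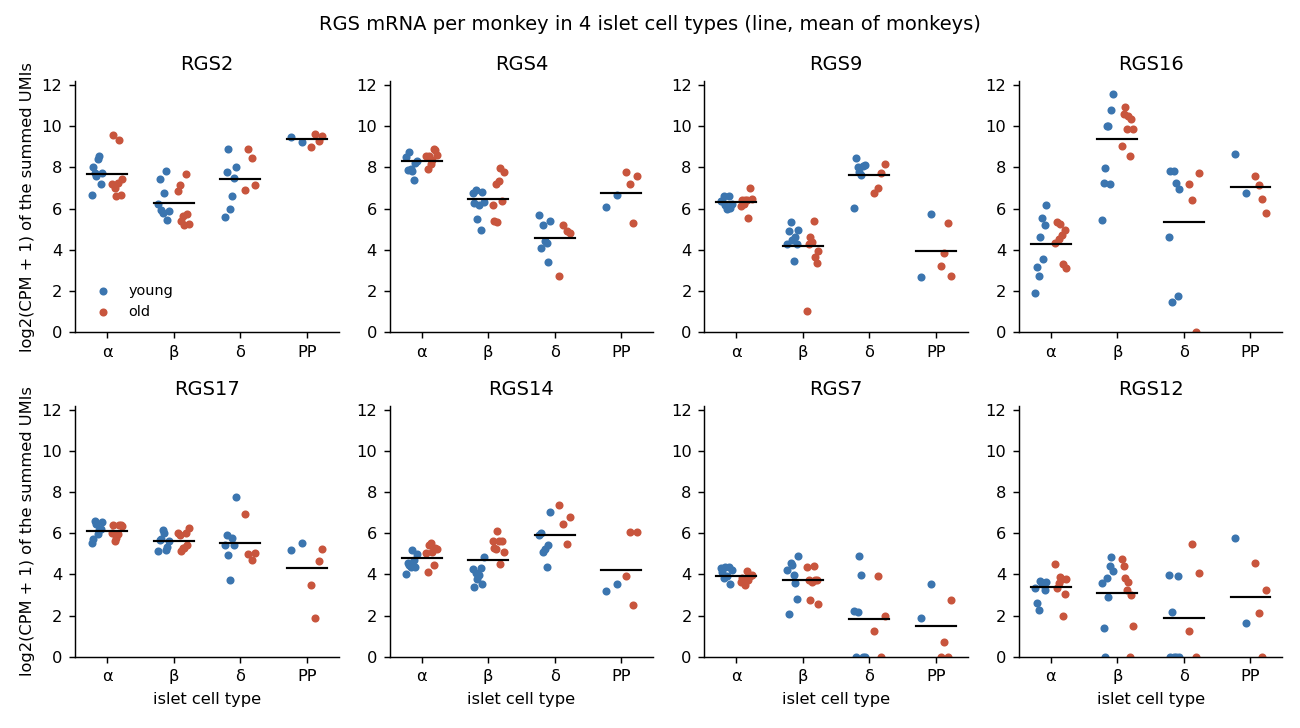
RGS mRNA in 4 islet cell types. Each point is 1 monkey (blue, young; red, old), the vertical axis is log2(CPM + 1), and the black line is the mean over monkeys. RGS16 stands highest in β-cells (mean 1030 CPM against 24.5 in α-cells), RGS4 in α-cells (326 CPM), RGS9 in δ-cells (216 CPM) and RGS2 in PP-cells (667 CPM).

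Types were compared within monkeys with edgeR's quasi-likelihood test and Benjamini-Hochberg adjustment over 14648 genes. Between β- and α-cells, 4 of the 10 genes passed, 1 higher and 3 lower in β-cells, where 25.7% of all genes passed (7.54% higher and 18.1% lower). Between δ- and α-cells 5 passed (background 22.8%, of which 3.82% higher and 19.0% lower), and between PP- and α-cells 6 passed (background 6.32%, of which 1.48% higher and 4.84% lower). Against β-cells, 6 passed in δ-cells (background 18.0%) and 4 in PP-cells (background 15.6%), and 4 passed between PP- and δ-cells (background 8.86%). RGS3, RGS10 and RGS12 passed in none of the 6 comparisons. Because the genes were listed with earlier results of these data known, these counts describe the list.

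The scaling of libraries moved all genes together in the comparisons with δ- and PP-cells. The median log2 fold change over all genes was −0.57 for δ- over α-cells and −0.49 for PP- over α-cells by TMM scaling, and −0.31 and −0.27 with DESeq2's size factors. For δ- over β-cells it moved from −0.40 to −0.14 and for PP- over β-cells from −0.32 to −0.10. The share of calls that were higher moved with it, from 16.8% to 32.7% for δ- over α-cells, from 23.4% to 45.3% for PP- over α-cells, from 27.5% to 48.6% for δ- over β-cells and from 38.8% to 56.5% for PP- over β-cells. It stayed near 29.4% for β- over α-cells. With the size factors, RGS7 between PP- and α-cells (adjusted p = 0.0519), RGS7 between δ- and β-cells (adjusted p = 0.0732) and RGS17 between PP- and β-cells (adjusted p = 0.115) no longer passed edgeR's quasi-likelihood test, and no called RGS gene changed direction.

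RGS16, an R4 protein that acts on Gi and Gq subunits, was highest in β-cells. Its lowest, median and highest levels over 16 monkeys were 42.0, 979 and 3048 CPM in β-cells and 2.74, 22.5 and 70.8 CPM in α-cells. The ranges overlapped only through the lowest β-cell value, that of young female monkey 1, and RGS16 was higher in β- than in α-cells in 16 of 16 monkeys. The change was 37.3-fold (log2 fold change 5.22 ± 0.34 SE, edgeR's quasi-likelihood test, adjusted p = 1.0e-17). In δ-cells it ran from 0 to 229 CPM with a median of 122, and in PP-cells from 54.1 to 409 with a median of 124. These 2 ranges overlapped the lower β-cell values. Within a monkey, β-cells were above δ-cells in 10 of 11 and above PP-cells in 6 of 6. Both δ- and PP-cells were above α-cells (log2 2.30 ± 0.38 for δ and 2.58 ± 0.44 for PP) and below β-cells (log2 −2.92 ± 0.40 and −2.64 ± 0.50), and all 4 differences passed.

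RGS4, an R4 regulator of Gi and Gq signals, was highest in α-cells and lowest in δ-cells. In α-cells it ranged from 169 to 478 CPM with a median of 319, in β-cells from 30.4 to 247 with a median of 81.4, in PP-cells from 38.3 to 222 with a median of 123, and in δ-cells from 5.66 to 50.8 with a median of 27.5. The α- and β-cell ranges overlapped across monkeys, but within a monkey α-cells were higher in 16 of 16, and α-cells were above δ-cells in 11 of 11. RGS4 was 3.58-fold lower in β- than in α-cells (log2 −1.84 ± 0.21, edgeR adjusted p = 8.9e-10) and 14.2-fold lower in δ- than in α-cells (log2 −3.83 ± 0.29, edgeR adjusted p = 5.6e-15). It was also lower in PP- than in α-cells (log2 −1.35 ± 0.33) and lower in δ- than in β-cells (log2 −1.99 ± 0.28). The difference between PP- and β-cells did not pass.

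RGS2, which acts mainly on Gq, was highest in PP-cells. All 6 monkeys had between 512 and 800 CPM there, with a median of 669. In α-cells the levels ran from 98.5 to 768 CPM with a median of 184, in δ-cells from 47.2 to 476 with a median of 180, and in β-cells from 35.7 to 227 with a median of 59.0. PP-cells overlapped α-cells only through old female monkey 2 (768 CPM) and old male monkey 2 (656 CPM), while the other 14 monkeys had at most 373 CPM in α-cells. RGS2 was 2.50-fold higher in PP- than in α-cells (log2 1.32 ± 0.30, edgeR adjusted p = 0.0048), 6.68-fold higher in PP- than in β-cells (log2 2.74 ± 0.31, edgeR adjusted p = 2.1e-09), and 2.68-fold lower in β- than in α-cells (log2 −1.42 ± 0.22, edgeR adjusted p = 8.3e-07). Of the 6 monkeys with PP-cells, 6 had RGS2 higher there than in β-cells and 5 higher than in α-cells. It was higher in δ- than in β-cells (log2 0.79 ± 0.26, edgeR adjusted p = 0.0256), a call lost without old female monkey 2, young female monkey 3 or young male monkey 3 (adjusted p 0.0623, 0.125 and 0.105). The PP-cell values rest on few cells, 74 in all, 33 of them from old female monkey 2, and where 10 cells per monkey were required, which left that 1 monkey, the difference from α-cells no longer passed (log2 0.61, edgeR adjusted p = 0.799).

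RGS3, an R4 protein with long and short isoforms, had few UMIs. It had a mean of 1.95 CPM in α-cells, 1.796 in β-cells, 9.33 in δ-cells and 1.46 in PP-cells. The δ-cell mean came from few animals, since the median was 0 and 6 of 11 monkeys had no RGS3 UMI in these cells, and it was 5.42 CPM without young male monkey 1. In PP-cells the same monkey held 3 of 4 RGS3 UMIs. The difference between δ- and α-cells was log2 1.33 with a 95% interval of −0.42 to 3.07.

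RGS9, an R7 protein known from photoreceptors and striatal neurons, was highest in δ-cells. Its lowest, median and highest levels were 63.5, 221 and 354 CPM in δ-cells, 46.4, 81.6 and 127 in α-cells, 1.02, 19.3 and 41.2 in β-cells, and 5.38, 10.8 and 53.2 in PP-cells. The α- and β-cell ranges did not overlap. RGS9 was higher in δ- than in α-cells in 10 of 11 monkeys (log2 1.28 ± 0.28, edgeR adjusted p = 7.7e-04), and 11.1-fold higher in δ- than in β-cells (log2 3.47 ± 0.30, edgeR adjusted p = 5.5e-13). In β-cells it was 4.57-fold below α-cells (log2 −2.19 ± 0.26, edgeR adjusted p = 2.4e-09) and lower in 16 of 16 monkeys. PP-cells were below α-cells (log2 −1.99 ± 0.44) and below δ-cells (log2 −3.26 ± 0.47).

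RGS7, the other R7 member, was at 14.7 ± 3.16 CPM in α-cells and 14.02 ± 7.20 in β-cells (SD, n = 16). These 2 types were not told apart (log2 −0.25, 95% interval −0.99 to 0.50). Means were 6.27 CPM in δ-cells (4.03 without young female monkey 4) and 3.28 CPM in PP-cells (1.81 without young male monkey 4), with 4 of 11 and 2 of 6 monkeys at 0. RGS7 was lower in δ- than in α-cells (log2 −1.92 ± 0.54, edgeR adjusted p = 0.0075). It was also lower in PP- than in α-cells (log2 −2.69 ± 0.77, edgeR adjusted p = 0.0265), which rested on 9 UMIs in PP-cells and was lost when old female monkey 1, old female monkey 2, old male monkey 2 or young male monkey 1 was left out (adjusted p 0.0636, 0.0824, 0.0642 and 0.0590). Against β-cells RGS7 was lower in δ-cells (log2 −1.67 ± 0.54, edgeR adjusted p = 0.0231), a call lost without old female monkey 1 or young female monkey 3 (adjusted p 0.0517 and 0.0511). It was also lower in PP- than in β-cells (log2 −2.44 ± 0.77, edgeR adjusted p = 0.0231), which was lost without the same 4 monkeys as the difference from α-cells (highest adjusted p = 0.0861). A protein-coding gene without a symbol overlaps RGS7 in the RefSeq annotation of the species, so reads of the pair may not be separable.

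RGS14, an R12 protein with a second G protein binding domain that holds Gi in its GDP form, did not pass between α-, β- and PP-cells. The means were 28.4 ± 9.43 CPM in α-cells, 29.3 ± 17.2 in β-cells and 28.1 ± 29.1 in PP-cells, and the difference between β- and α-cells was log2 −0.17 (95% interval −0.71 to 0.37), that between PP- and α-cells −0.31 (−1.19 to 0.58). δ-cells ran from 19.4 to 167 CPM with a median of 59.9, which overlapped the α-cell range of 15.2 to 45.1. RGS14 was nevertheless higher in δ- than in α-cells in 10 of 11 monkeys (log2 1.28 ± 0.33, edgeR adjusted p = 0.0038) and higher than in β-cells in 11 of 11 (log2 1.44 ± 0.34, edgeR adjusted p = 0.0015). It was lower in PP- than in δ-cells (log2 −1.58 ± 0.48, edgeR adjusted p = 0.0299), a call lost without old female monkey 1, old male monkey 2, young male monkey 1 or young male monkey 4 (adjusted p 0.108, 0.0683, 0.0521 and 0.0788). That call held in 4 of 8 alternatives, and with at least 10 cells per monkey the difference was log2 −0.30 (edgeR adjusted p = 0.998).

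RGS12 and RGS10, the other R12 members, passed in no comparison of types. RGS12, a scaffold with several signalling domains, had means of 10.2 CPM in α-cells, 11.6 in β-cells, 8.41 in δ-cells (4.95 without old female monkey 2) and 15.1 in PP-cells (7.32 without young male monkey 1), and the interval of the difference between β- and α-cells was −1.22 to 0.73 on the log2 scale. RGS10, the smallest R12 protein, was at 0.856 CPM in α-cells and 0.125 in β-cells. Young male monkey 3 gave 171 of its 249 UMIs in α-cells, and without this monkey the α-cell mean was 0.272 CPM. Whether the cells with these UMIs were endocrine was not tested. In δ-cells 0 of 112 cells held a RGS10 UMI, which allows up to 2.68% of cells with a UMI by counting error alone and, at this depth and level, sets no limit on cells that express the gene.

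RGS17, an RZ protein that acts on Gz and Gi, was found in all types. The levels ran from 44.7 to 94.8 CPM in α-cells with a median of 72.1, from 34.0 to 76.3 in β-cells with a median of 49.0, from 12.3 to 215 in δ-cells with a median of 41.7 and from 2.67 to 44.7 in PP-cells with a median of 29.5. It was lower in PP- than in α-cells (log2 −1.82 ± 0.47, edgeR adjusted p = 0.0128), a call lost without old female monkey 2 (adjusted p = 0.0616). The difference between β- and α-cells did not pass (log2 −0.53, 95% interval −1.05 to −0.0017, edgeR adjusted p = 0.152), though α-cells were higher in 15 of 16 monkeys. The interval is a normal approximation, narrower than the test's own, and edgeR's unadjusted p was over 0.05. This difference passed in 2 of 8 alternatives, after thinning (edgeR adjusted p = 0.0289) and with at least 10 cells per monkey (edgeR adjusted p = 0.0399), and the adjusted p over all 8 ran up to 0.203. That between PP- and β-cells was near the threshold (log2 −1.30 ± 0.46, edgeR adjusted p = 0.0471) and held in only 3 of 16 fits that left out 1 monkey.

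Because β-, δ- and PP-cells also held GCG mRNA, the RGS levels were set beside the level that α-cell mRNA would bring in at its own ratio to GCG. RGS4 in β-cells had a mean of 103 CPM, and 97.9 CPM would stand there at the α-cell ratio of RGS4 to GCG. The ratio was higher in β- than in α-cells in 7 of 16 monkeys. RGS9 had 20.6 CPM in β-cells against 24.2 at the α-cell ratio, again higher in 7 of 16. For both genes the ratio to GCG was thus higher in β-cells in some monkeys and higher in α-cells in the others. RGS2 had 92.3 CPM against 72.7, with 11 of 16 monkeys higher.

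Other genes exceeded that level. RGS17 had 50.5 CPM in β-cells against 21.1 at the α-cell ratio, and RGS14 29.3 against 8.07, both higher in 16 of 16 monkeys. In δ-cells RGS9 had 216 CPM against 25.4 (11 of 11 monkeys higher), while RGS4 had 26.4 against 104 (0 of 11 higher). In PP-cells RGS2 had 667 CPM against 172 (6 of 6 higher). In the reverse direction, RGS16 in α-cells had 24.5 CPM, below the 125 CPM that the β-cell ratio of RGS16 to INS would give, with 1 of 16 monkeys higher. RGS16 in δ- and PP-cells had 109 and 165 CPM against 81.2 and 240 at that ratio, with 4 of 11 and 2 of 6 monkeys higher. The part of carried mRNA in these levels was not tested.

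The RGS genes were also read along the ratio of INS to GCG in single cells. RGS16 had a mean of 8.44 CPM where log2 of INS over GCG was under −6, then 12.5, 27.0 and 67.9 CPM in the successive α-cell ranges, and 1014 and 1385 CPM in β-cells with log2 ratios of 0 to 2 and 2 to 4. RGS4 stood at 353, 363, 306 and 284 CPM in the 4 α-cell ranges and at 106 and 84.9 CPM in the 2 β-cell ranges. RGS2 stood at 247 and 94.2 CPM in the ranges on either side of 0, and RGS9 at 67.5 and 20.0 CPM. From the lowest ratio to the highest, the ranges given average 8, 15, 16, 11, 16 and 11 monkeys with at least 5 cells. They thus do not all hold the same animals, and the part of this in the values was not tested. The ranges are cut on the same hormone counts that chose the types, so these values describe the cells and are no separate evidence of a type difference. INS was at least 4 times the second hormone in 384 β-cells, and 11 monkeys had at least 5 of them. Over these 11 monkeys RGS16 was at 1386 ± 760, RGS4 at 84.9 ± 56.6, RGS2 at 81.7 ± 69.2 and RGS9 at 18.2 ± 14.8 CPM (SD).

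**Figure D2:**
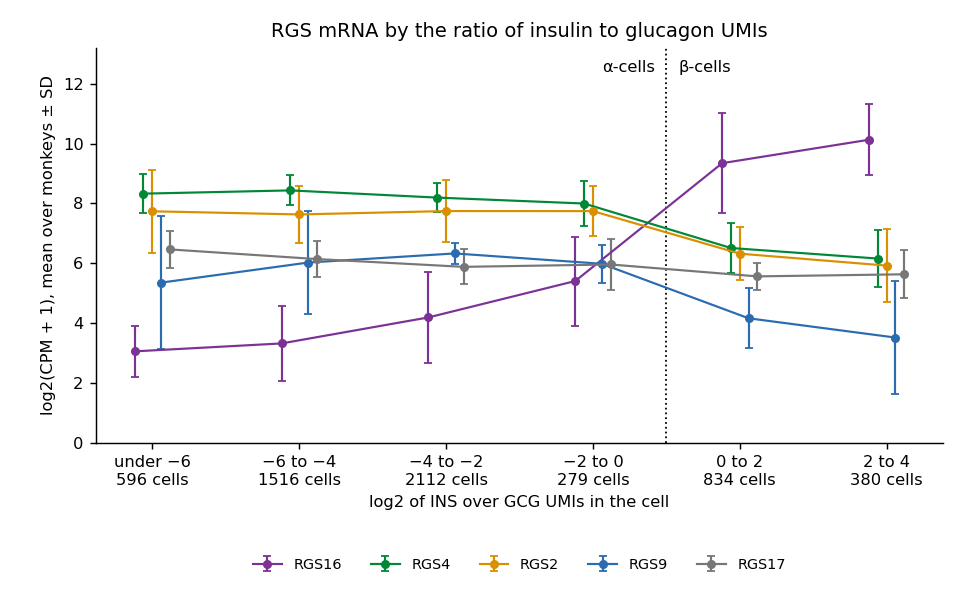
RGS mRNA against the ratio of insulin to glucagon UMIs in the cell. The horizontal axis gives ranges of log2 INS over GCG with their cell counts, the vertical axis the mean of log2(CPM + 1) over monkeys with at least 5 cells in the range, bars are the SD over monkeys, and the dotted line divides α- from β-cells. RGS16 rises across the line from a mean of 67.9 to 1014 CPM, RGS4 drops from 284 to 106, and RGS17 differs little. The ranges on either side of the line hold 11 and 16 monkeys.

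In single cells the same genes were unevenly spread. With cells thinned to 10000 macaque UMIs, which left out 39 α-cells and 6 β-cells with fewer, RGS16 was detected in 72.7% of β-cells (95% exact binomial interval 70.1 to 75.2) and in 16.9% of α-cells (15.8 to 18.0), against 86.4% and 51.1% before thinning. RGS4 was detected in 75.4% of thinned α-cells and 39.6% of β-cells, RGS9 in 58.0% of δ-cells against 33.3% of α-cells and 10.5% of β-cells, and RGS2 in 90.5% of PP-cells against 55.4% of α-cells. Median depth before thinning was 64894 UMIs in α-cells, 74425 in β-cells, 43776 in δ-cells and 45772.5 in PP-cells. Intervals cover counting error only. Within β-cells the level per cell of RGS16 had a median of 377 CPM and a 90th percentile of 3083 CPM, and the tenth of β-cells with the most RGS16 held 46.2% of it. For RGS2 in α-cells the median was 76.2 CPM and the 90th percentile 673 CPM.

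Monkeys differed widely in RGS16 and little in RGS17. The highest monkey had 72.5 times the RGS16 level of the lowest in β-cells and 25.8 times in α-cells, against 2.24 and 2.12 times for RGS17. Young females had 42.0, 149, 249 and 1044 CPM of RGS16 in β-cells, young males 1024, 146, 1771 and 3048, old females 533, 1543, 1956 and 935, and old males 1433, 381, 1297 and 923. The lowest 4 values thus belonged to young monkeys, and so did the highest. A monkey high for RGS16 in β-cells was also high in α-cells: over 16 monkeys the α- and β-cell levels, as log2(CPM + 1), had a Pearson r of 0.859 and a Spearman rho of 0.768. For RGS4 the values were 0.756 and 0.771 and for RGS2 0.731 and 0.644, while RGS9 had 0.220 and 0.215. The median rho over 7370 genes was 0.315. Both types of a monkey share its libraries, dissociation and day, and these correlations are descriptions.

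The partners and targets of these proteins were taken as lists. Of 11 tested Gα subunits, which are the substrates of RGS proteins, 3 passed between β- and α-cells, all lower in β-cells, with GNAI1, a Gi subunit, at 67.6 CPM in β- and 144 CPM in α-cells (log2 −1.13 ± 0.22). That count is near the background, since 25.7% of all genes passed. The list's median was −0.29 beside −0.20 over all genes. Between δ- and α-cells 3 passed, all lower, with GNAO1, the Go subunit, at log2 −1.58 ± 0.32, again near the background of 22.8%. Of 14 Gβ and Gγ subunits, 6 were lower in β-cells and 0 higher (median −0.66), where 18.1% of all genes were lower and 7.54% higher, among them GNG12 (log2 −1.76 ± 0.36) and GNB3 (log2 −1.40 ± 0.43). In δ-cells 6 were lower than in α-cells and 1 higher (background 19.0% lower and 3.82% higher), and GNG4, an abundant γ subunit, fell from 428 CPM in α-cells to 132 CPM (log2 −1.76 ± 0.18).

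The partners of the R7 group moved in both directions. Of 4 tested, 3 passed between β- and α-cells, where 25.7% of all genes did. GPR158, an orphan receptor that anchors RGS7 at the membrane, was higher in β-cells (34.6 against 6.29 CPM, log2 2.58 ± 0.47), and GPR179, its relative from the retina, was lower (0.329 against 2.63 CPM, log2 −3.44 ± 0.56). RGS7BP, a membrane anchor of the R7 group, was under 1 CPM in both types. Of 11 receptor kinases, arrestins and GoLoco proteins, which end or shape receptor signals by other routes, 5 were lower and 1 higher in β- than in α-cells, beside 18.1% and 7.54% of all genes. GRK6, a receptor kinase, was at 97.0 CPM in β- and 220 CPM in α-cells (log2 −1.21 ± 0.13), and GPSM1, a GoLoco protein, at 38.8 and 13.5 CPM (log2 1.21 ± 0.40). Of the RGS genes not listed, 9 were tested and 2 passed between β- and α-cells, RGS8 and RGS21, both under 1 CPM in both types, a share near the background of 25.7%.

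Immediate-early genes, which are induced within minutes of stimulation or dissociation, were read beside RGS2, which can be induced with them. Of 16 tested, 14 were lower in β- than in α-cells (median log2 −2.30, background 18.1% lower), and 11 were lower in δ- than in α-cells and 0 higher (background 19.0% lower and 3.82% higher). Between PP- and α-cells 1 was higher (FOSB, log2 2.51 ± 0.37) and 1 lower, where 1.48% of all genes were higher and 4.84% lower. In PP-cells 12 were higher than in β-cells and 10 higher than in δ-cells, and 6 were higher in δ- than in β-cells. None was lower there (backgrounds 15.6%, 8.86% and 18.0% in either direction). The mean summed level was 6091 CPM in PP-, 4175 in α-, 2670 in δ- and 932 in β-cells, the same order of types as RGS2. A shared cause was not tested. Across monkeys within α- or β-cells, no relation of RGS2 to the summed immediate-early level passed. In α-cells Pearson's r over 16 monkeys was 0.270 (permutation p = 0.312) and Spearman's rho 0.268 (p = 0.312), with adjusted values of 0.623 and 0.624 over the 2 relations computed, and r was 0.0796 without the 2 monkeys farthest from the median. In β-cells r was −0.127 (permutation p = 0.636) and rho −0.103 (p = 0.705).

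Genes of like pattern were taken over the 49 sums of a monkey and type, among 8215 genes, as a description. RGS4 was followed by VAV3 (Spearman rho 0.858), COTL1 (0.855) and ALDH1A1 (0.836), and RGS9 by ISL1 (0.841), STMN2 (0.825) and PEG10 (0.797). RGS16 was followed by SUGP1 (0.802), PEX3 (0.762) and GAD2 (0.758), RGS7 by GRWD1 (0.728), TFIP11 (0.691) and CNN3 (0.655), and RGS17 by 2 genes without a symbol and NDUFAF7 (0.646). The likeness was lower for RGS2, with BTG2 (0.651), PKIB (0.649) and PLA2G1B (0.647), for RGS12, with PTPRA (0.650), OSBPL2 (0.620) and NCDN (0.594), and for RGS14, with TMEM159 (0.621), APOD (0.566) and CSGALNACT1 (0.558). BTG2 is on the list of immediate-early genes. The sums of 1 monkey share its libraries.

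Young and old monkeys were then compared within each type, with sex in the model. In α-cells 0 of 9 tested RGS genes passed edgeR's quasi-likelihood test, as did 0% of all 13486 genes. At an unadjusted p under 0.05, 1 RGS gene (RGS14) and 920 genes over all stood in α-cells, and DESeq2 called 33 genes but no RGS gene. In β-cells 0 of 9 RGS genes passed edgeR's test, beside 0.0450% of all genes (5 of 11101), and RGS14 was the 1 RGS gene with an unadjusted p under 0.05. DESeq2 called 0.287% of all genes (40 of 13944) and 1 RGS gene, RGS14. In δ-cells (7 young and 4 old monkeys) and PP-cells (2 young and 4 old) edgeR called 0% of all genes and 0 of 6 RGS genes. At an unadjusted p under 0.05 there were 289 genes in δ-cells and none of the 6, and 394 in PP-cells, RGS16 among them (log2 −1.78 ± 0.80). DESeq2 called 3 genes in δ-cells and 0 in PP-cells. Both young monkeys with PP-cells were male. With sex in the model, the age effect in PP-cells therefore compared these 2 with old male monkeys 2 and 4, and the old females set only the sex term.

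**Figure D3:**
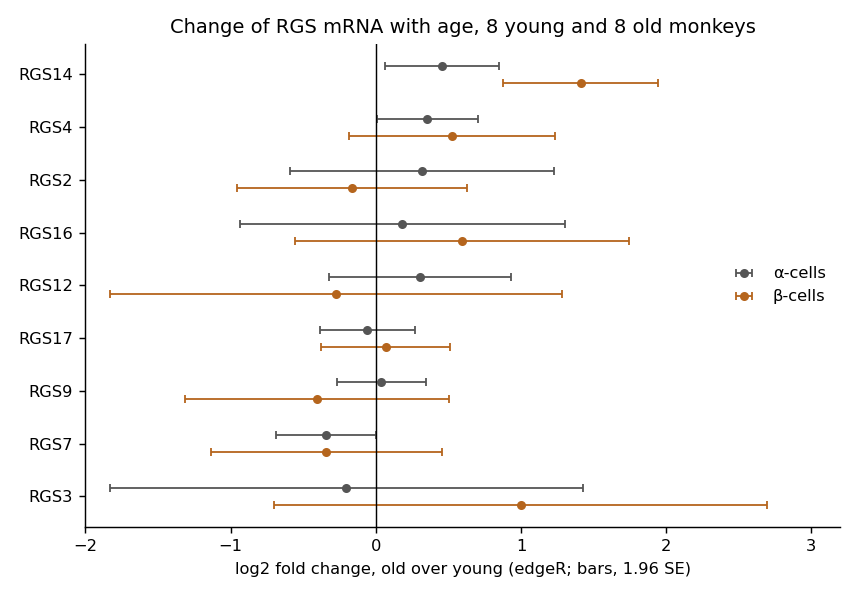
Change of RGS mRNA with age in α-cells (grey) and β-cells (brown). Points are edgeR log2 fold changes of 8 old over 8 young monkeys and bars are 95% intervals. RGS14 in β-cells stands at 1.41 ± 0.27 SE, and most other bars cross 0.

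RGS14 had the largest fitted log2 fold change with age in β-cells among the 9 listed genes tested. Young monkeys had a lowest, median and highest level of 9.64, 15.2 and 27.5 CPM, and old monkeys of 22.1, 43.0 and 68.0 CPM. The ranges overlapped through old male monkey 2 (22.1 CPM) and young male monkey 4 (27.5 CPM), and 7 of 8 old monkeys were above every young one. The mean was 15.9 ± 5.68 CPM in young and 42.8 ± 13.7 CPM in old β-cells (SD, n = 8 each), a ratio of 2.69. The fitted log2 fold change was 1.41 ± 0.27 (edgeR's quasi-likelihood test, unadjusted p = 2.9e-05), and after adjustment over all genes it stood just outside the threshold (adjusted p = 0.0532).

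The call on RGS14 depended on the test. By DESeq2 it passed (log2 1.39, adjusted p = 1.0e-04), and by edgeR it passed without the filter on low counts (adjusted p = 0.0353) and without sex in the model (adjusted p = 0.0404). It did not pass after thinning to 10000 UMIs per cell (log2 1.14, edgeR adjusted p = 0.638). Nor did it pass by limma on the mean of log2(CPM/10 + 1) over cells, which is another scale (log2 0.67, adjusted p = 0.946). It passed in none of the remaining alternatives, apart from fits that left out 1 monkey. Leaving out 1 monkey gave log2 fold changes of 1.27 to 1.55 and edgeR adjusted p from 0.0301 to 0.167. It was under the threshold without old male monkey 2, old male monkey 4 or young male monkey 4 (adjusted p 0.0301, 0.0318 and 0.0433).

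**Figure D4:**
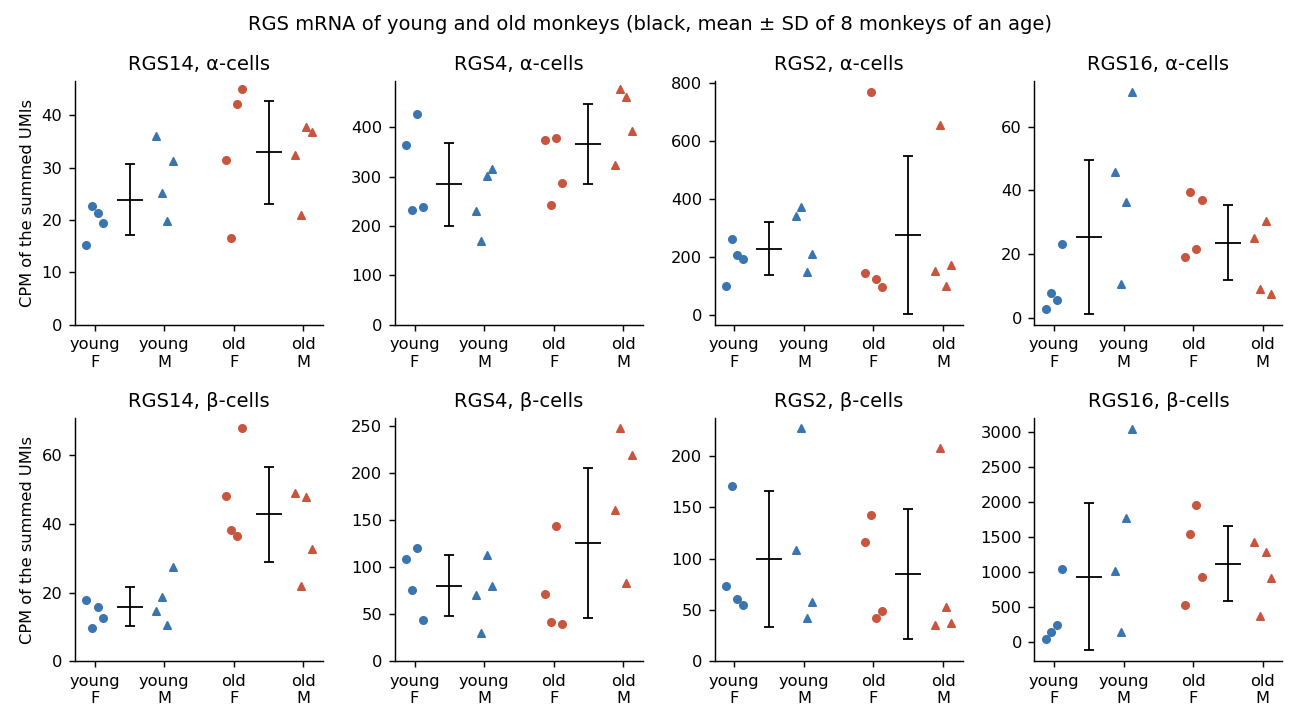
RGS14, RGS4, RGS2 and RGS16 in α-cells (top) and β-cells (bottom) of young and old monkeys. Points are monkeys (circles, females; triangles, males), the vertical axis is CPM of summed UMIs and black marks are the mean ± SD of the 8 monkeys of an age. RGS14 in β-cells is 15.9 ± 5.68 CPM in the young and 42.8 ± 13.7 in the old, while RGS16 in β-cells spreads from 42.0 to 3048 CPM in the young.

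RGS14 was then read in β-cells with more and with less of a second hormone. In β-cells whose INS was under 4 times the second hormone, RGS14 was at 15.3 ± 6.52 CPM in 8 young monkeys (361 cells) and 42.2 ± 15.7 CPM in 8 old ones (474 cells). In β-cells with INS at least 4 times the second hormone it was at 29.5 ± 15.6 CPM in 4 young monkeys (170 cells) and 39.2 ± 31.2 CPM in 7 old ones (207 cells, from 2.91 to 83.4 CPM). There the fitted log2 change was −0.20 ± 0.63 (edgeR adjusted p = 1.00), with fewer monkeys and cells, and its sign differed from that of the means and of the medians (29.6 CPM in young and 32.5 CPM in old). Whether the 2 kinds of β-cell differ in their age effect was not tested.

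**Figure D5:**
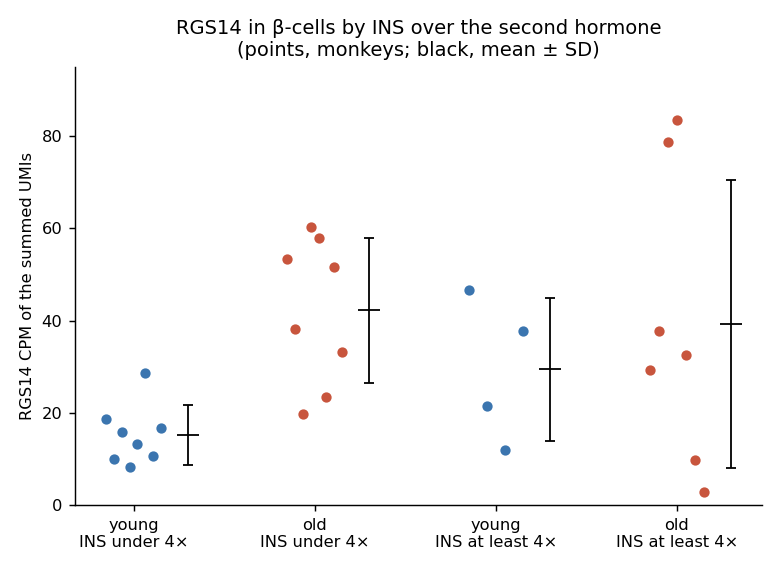
RGS14 in β-cells split by how far INS exceeded the second hormone. Points are monkeys with at least 5 such cells, the vertical axis is CPM of summed UMIs and black marks are mean ± SD. Below 4 times, young monkeys stand at 15.3 ± 6.52 and old ones at 42.2 ± 15.7 CPM, and at 4 times or more the groups overlap over their range.

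Other measures moved with age in the same β-cells. The median depth was 30098.5 to 85549 UMIs per cell in young monkeys (median 64325) and 68440 to 112671 in old ones (median 75900.5). The summed ductal marker list, of which SPP1 held a mean of 1245 of 1271 CPM and CFTR was at 0, was at 66.1 to 1428 CPM in young (median 185) and 383 to 5302 CPM in old β-cells (median 1708). Over young and old monkeys together, KRT19 was at 1.67 CPM in β- and 15.7 CPM in α-cells, KRT7 at 24.3 and 24.9, and MMP7 at 0.40 and 0.43. These means are not split by age. The study itself reported SPP1 as raised with age in both α- and β-cells. GCG was at a mean of 25988 CPM in young and 19711 CPM in old β-cells. Immune markers were at 13.1 to 45.3 CPM in young and 6.66 to 24.3 CPM in old β-cells. With the GCG level as a covariate, which was added after seeing the data, the RGS14 change was log2 1.23 (edgeR adjusted p = 0.357). The part of ductal mRNA and of depth in it was not tested beyond the thinning.

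RGS14 in α-cells ran from 15.2 to 36.1 CPM in young and from 16.7 to 45.1 CPM in old monkeys, with medians of 22.01 and 34.7. The ranges overlapped over most of their length, and the difference was log2 0.46 ± 0.20 (edgeR adjusted p = 0.719). The difference of the age effect between β- and α-cells was log2 0.97 ± 0.29 (unadjusted p = 0.0026, edgeR adjusted p = 0.662). None of the 10 tested genes passed that test, nor did any gene over all (0% of 15441), while 920 genes and 2 of the 10, RGS14 and RGS16, were under an unadjusted p of 0.05, and DESeq2 called 14 genes.

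The remaining RGS genes had wide intervals for age. RGS4 had a mean of 284 CPM in young and 367 CPM in old α-cells (log2 0.35, 95% interval 0.01 to 0.70, edgeR adjusted p = 0.751), and was at 80.2 and 126 CPM in β-cells (log2 0.52, interval −0.18 to 1.23). RGS16 in β-cells was at 934 CPM in young and 1125 CPM in old monkeys (log2 0.59, interval −0.56 to 1.74). RGS2 was at 230 and 277 CPM in α-cells (interval −0.59 to 1.23) and at 99.3 and 85.4 CPM in β-cells (interval −0.96 to 0.63). RGS17 had the narrowest interval in α-cells after RGS9, from −0.38 to 0.27 and from −0.27 to 0.35, so changes beyond 1.5-fold in α-cells lay outside both. RGS7 in α-cells was at 16.3 CPM in young and 13.0 CPM in old monkeys (log2 −0.34, interval −0.69 to 0.0041).

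Females and males were compared in their age effect. RGS16 in α-cells was higher in old than young females by log2 1.55 ± 0.61 and lower in old than young males by 1.17 ± 0.60, neither of which passed. The difference between sexes was log2 −2.72 ± 0.86 (unadjusted p = 0.0056, edgeR adjusted p = 0.872) in α-cells and −2.25 ± 1.02 (unadjusted p = 0.0379, edgeR adjusted p = 1.00) in β-cells. RGS4 had the other sign, log2 0.73 ± 0.32 in α-cells and 1.60 ± 0.63 in β-cells, with β-cell levels of 39.9 to 144 CPM in old females and 82.8 to 247 CPM in old males. No RGS gene passed in either type, where 0.00707% of all genes passed in α-cells (1 of 14146) and 0% of 11693 in β-cells. At an unadjusted p under 0.05 there were 793 genes in α-cells, 2 of them RGS genes, and 495 in β-cells, 3 of them RGS genes, and DESeq2 called 19 and 3 genes.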

How the data were processed

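Per the labels, islet cells were sequenced with a tagged reverse transcription protocol in 64 libraries, and the authors used CASAVA 1.8 and TopHat2 2.0.12. The deposited values are raw UMI counts per gene and cell, not normalized. The 10 genes and all lists were chosen with earlier results of these data known. Named genes of the lists had an adjusted p under 0.05 and an absolute log2 fold change of at least 1. Cells with more than 800 genes and more than 10000 UMIs were typed by their highest hormone. Doublets were not removed in the main analysis. The 95 spike-ins counted toward the UMI minimum of a cell and were left out of CPM and tests. UMIs were summed per monkey and type (at least 5 cells), and 49 sums were tested with edgeR 4.0.16 (quasi-likelihood, TMM, filterByExpr, Benjamini-Hochberg, threshold 0.05) in R 4.3.3. Types were tested with monkey as a term, age with sex as a term. The 95% intervals of log2 fold changes use a normal approximation and are narrower than those of the test itself. Every result was recomputed with DESeq2 1.42.0, thinned counts and each monkey left out. The comparisons of types, and of age within a type, were also recomputed with DESeq2 size factors, no filter and stricter cell filters. Age in α- and β-cells was also recomputed with limma 3.58.1. The differences of the age effect between types and between sexes were not recomputed with size factors, without the filter or with stricter cell filters. Scripts were tested on simulated data. Monkeys are the replicates.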

Additional observations from a re-analysis of the deposited data

Results flagged for a closer look

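In δ-cells, 2 monkeys stood far above the other monkeys of their age. Young male monkey 3 had 128 CPM of RGS14, with the next young monkey at 62.9 CPM, from 60 UMIs in 14 cells. The same monkey had 215 CPM of RGS17, from 101 UMIs, with the next at 59.0 CPM. Old female monkey 1 had 123 CPM of RGS17, from 87 UMIs in 7 cells, with the next old monkey at 31.9 CPM. These are 3 of 51 groups of monkeys in which the highest and lowest values were looked at, and chance alone would single out about 5% of groups. Each rests on few cells.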

How the results depend on the processing

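Of 696 recomputed values of called RGS differences, 643 stayed past the threshold and 53 did not, and none changed sign among the 10 genes. Of 1924 values of uncalled differences, 16 passed and 141 had the other sign. Calls with PP-cells were the least firm. Requiring 10 cells left 1 monkey with PP-cells, assumed to vary like the others, and the RGS genes called went from 6 to 1 against α-cells, from 4 to 1 against β-cells and from 4 to 2 against δ-cells, with fewer sums as the change made. Over all genes the calls were then 47, 372 and 272, and 3 called genes of the other lists changed sign: GNG12 (log2 −0.1374) and the immediate-early gene IER2 (−0.7505) against β-cells and GNA12 (0.4462) against δ-cells. Leaving out 1 monkey gave 2 to 4 RGS genes between PP- and β-cells, with 2 without old female monkey 1, old female monkey 2 or young male monkey 1.

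With age in β-cells, 0 RGS genes became 1, RGS14, with DESeq2, with no filter on low counts and with no sex term, and 0 to 1 with each monkey left out. The cause was not tested. Over all genes the 5 edgeR calls in β-cells became 40 with DESeq2, 21 with no filter, 3 after thinning, 3 without cells above the 95th percentile of UMIs, 3 with GCG as a covariate, 2 with the study's list of β-cells, 1 with at least 30 cells per monkey, 1 with INS at least 4 times the second hormone and 0 by limma, and 2 to 8 with 1 monkey left out. In PP-cells leaving out 1 monkey gave 4 to 12 genes where the whole set gave 0. The difference of the age effect between types had 0 genes by edgeR, 14 by DESeq2 and 6 after thinning.

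The replicate numbers of young and old monkeys did not pair them: correlations of same-numbered monkeys ran from −0.149 to 0.179, with 3 of 16 over 0.1. With the replicate block, 0 RGS genes were called with age in α-, β- or δ-cells, RGS14 in β-cells had log2 1.40 (edgeR adjusted p = 0.242), and 11 genes were called over all in β-cells. That block could not be fitted in PP-cells, and the requirement of a hormone at least 4 times the second could not be fitted between types or for age in δ- and PP-cells. Depth limits RGS3 and RGS10 everywhere, and RGS7 and RGS12 in δ- and PP-cells.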
